A study of Mus musculus with 36 samples.

Results

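The expression of 10 genes that mark microglia or carry their survival and sensing signals was followed in BV-2, a line of immortalised microglia from mouse, under lipopolysaccharide (LPS) and 3 drugs. The 10 genes were found by exact symbol among the 19879 genes of the deposited tables: the receptors Csf1r, Trem2, Mertk and Tgfbr1, the adaptor Tyrobp, the marker Aif1, the transcription factor Spi1, and the purinergic receptors P2ry6, P2rx4 and P2rx7. All 10 were listed in every table, and 9 had enough reads to be tested in each of the 26 pairs of groups. Mertk had too few in all of them.

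The 36 RNA-seq libraries form 12 groups of 3. They cover 6 treatments at 4 h and 24 h: the solvents DMSO and ethanol (EtOH) at 0.2%, LPS at 600 ng/mL, and LPS with 30 µM dimethyl fumarate (LPS+DMF), 30 µM monomethyl fumarate (LPS+MMF) or 6 µM cannabidiol (LPS+CBD). All groups are this 1 immortalised line, kept in 0.1% serum for these treatments, and none is a primary microglial culture. DMSO carried DMF and MMF and EtOH carried CBD. Which solvent accompanied LPS alone was not stated, so LPS is set against both. In comparisons of a drug with LPS alone, drug and solvent may therefore differ together and cannot be told apart. The labels call the 3 libraries of a group replicates and the study describes separate experiments. P-values here measure the spread between these libraries.

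Microglia depend on CSF1R, the receptor tyrosine kinase for CSF1 and IL-34, and on PU.1, the ETS-family factor encoded by Spi1 that drives the myeloid programme. TREM2 senses lipids and cell debris and signals through the ITAM adaptor DAP12 (Tyrobp), while MERTK takes part in the uptake of apoptotic cells and TGFBR1 carries the TGF-beta signal that maintains the homeostatic state. P2Y6 responds to UDP and promotes phagocytosis, and P2X4 and P2X7 are ATP-gated cation channels, of which P2X7 leads to NLRP3 inflammasome activation at high ATP.

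Between 14.1 M and 26.7 M reads were counted per library (median 16.2 M). All 15 microglia or macrophage markers examined were expressed, with summed group levels of 84498 to 158791 normalized counts, 10 or more in at least 1 group for each marker. The homeostatic microglial set was partly missing: of its 9 markers, 5 reached 10 normalized counts in a group, Sall1 and Fcrls were in no table and Siglech and Gpr34 stayed below 10 normalized counts in all 12 groups. Of the markers of other brain or stromal cells, most were near 0. The oligodendrocyte marker Mbp ranged from 748 to 1386 in group means and the summed neuronal list, nearly all of it Map2, from 105 to 275. Map2 rose with LPS at 24 h (1.07 over DMSO, adjusted p = 0.000596) and fell with DMF at that time (-1.48 against LPS, adjusted p = 0.00255), and Mbp fell with CBD at 24 h (-0.69, adjusted p = 0.000984). The part of such cells in the results was not tested. In bulk RNA, fewer cells expressing a gene and less RNA per cell cannot be told apart.

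Promoter sequences are shown first for the 4 members called higher with CBD against LPS at 24 h (Trem2, Tgfbr1, P2rx4 and P2rx7). In that comparison 23.9% of all genes were called higher. Over the 12 group means, Pearson r between pairs of these members ran from -0.13 (P2rx4 and P2rx7) to 0.59 (Tgfbr1 and P2rx7). Shared regulation of them was not tested. RefSeq promoter entries (GRCm38.p6) were given for 6 of the 10 members. Those of Aif1 and Mertk are not shown, and Csf1r, Tyrobp, Spi1 and P2ry6 had no entry. Each stretch was found once in GRCm39 by exact match and runs 5′ to 3′ on the plus strand, ending just before the annotated gene start: Trem2 at chr17:48653179-48653428, Tgfbr1 at chr4:47352972-47353133, P2rx4 at chr5:122845357-122845540 and P2rx7 at chr5:122781740-122781941. Capitals mark matches to the motifs searched.
Trem2: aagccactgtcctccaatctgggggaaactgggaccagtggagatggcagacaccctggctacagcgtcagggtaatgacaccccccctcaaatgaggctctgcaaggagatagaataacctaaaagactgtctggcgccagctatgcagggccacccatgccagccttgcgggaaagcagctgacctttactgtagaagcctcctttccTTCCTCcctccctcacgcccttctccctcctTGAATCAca
Tgfbr1: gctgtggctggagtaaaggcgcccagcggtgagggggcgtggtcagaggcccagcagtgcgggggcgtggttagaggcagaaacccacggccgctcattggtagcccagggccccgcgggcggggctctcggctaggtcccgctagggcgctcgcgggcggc
P2rx4: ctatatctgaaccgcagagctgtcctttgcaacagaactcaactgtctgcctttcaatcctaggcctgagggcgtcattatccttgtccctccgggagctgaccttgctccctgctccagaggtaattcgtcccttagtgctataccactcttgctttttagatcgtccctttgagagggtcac
P2rx7: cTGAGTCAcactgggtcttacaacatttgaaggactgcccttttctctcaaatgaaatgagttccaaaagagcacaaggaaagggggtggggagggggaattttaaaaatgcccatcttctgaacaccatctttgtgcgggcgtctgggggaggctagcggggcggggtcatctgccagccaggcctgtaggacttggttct
The search covered 250 bases before the RefSeq start site on both strands, for the PU.1 core GAGGAA, the longer PU.1 site GAGGAAGT (which contains that core), the AP-1 site TGANTCA and the NF-kB consensus. Trem2 held the PU.1 core on the minus strand, beginning 40 bases before the start site, and an AP-1 match beginning 9 bases before it. P2rx7 held an AP-1 match at the far end, 249 bases before the start site. No match was found in the first entries of Tgfbr1 and P2rx4. Of the windows not shown, the second Tgfbr1 entry held GAGGAA beginning 95 bases before its start site, and Aif1 held it on the strand opposite to the gene, beginning 7 bases before. Over 32817 promoter windows of the same length, GAGGAA was in 23.3%, GAGGAAGT in 2.44%, TGANTCA in 6.75% and the NF-kB consensus in 3.9%. P2rx7 and P2rx4 lie close together on the plus strand of chromosome 5, with 15140 bases between the end of the former and the start of the latter. That stretch holds the annotated genes Gm10064 and Gm71244.

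Across all 36 libraries, the members spanned a wide range of abundance. Values are normalized counts, that is, reads divided by a library size factor set jointly over the 36 libraries. Between genes, levels can be compared only per kilobase of exon, here the union of all exons of a gene in the GENCODE annotation. On that scale Tyrobp was the most abundant at 4533 normalized counts per kb, followed by Spi1 at 1410, Csf1r at 1363, Trem2 at 267, Tgfbr1 at 119, P2rx7 at 111, P2ry6 at 103, P2rx4 at 65.7, Aif1 at 19.5 and Mertk at 0.347. The adaptor and the lineage regulators thus stood above the purinergic receptors. The union was 0.682 kb for Tyrobp, 4.95 kb for Trem2 and 4.24 kb for Aif1. It can be longer than the transcripts present, which lowers the value, so the order between genes is approximate. The ratio of the highest to the lowest group mean was 1.55 for Tgfbr1, 1.66 for Tyrobp and 1.81 for Trem2, and 2.13 to 3.94 for the other tested members. Neighbouring groups in each member's order overlapped in range nearly throughout. The exceptions were P2rx4 below LPS+CBD at 24 h, P2ry6 below EtOH at 4 h and above LPS+DMF at 4 h, Aif1 between its 24 h and 4 h groups and Tyrobp above the 24 h vehicles.

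**Figure D1:**
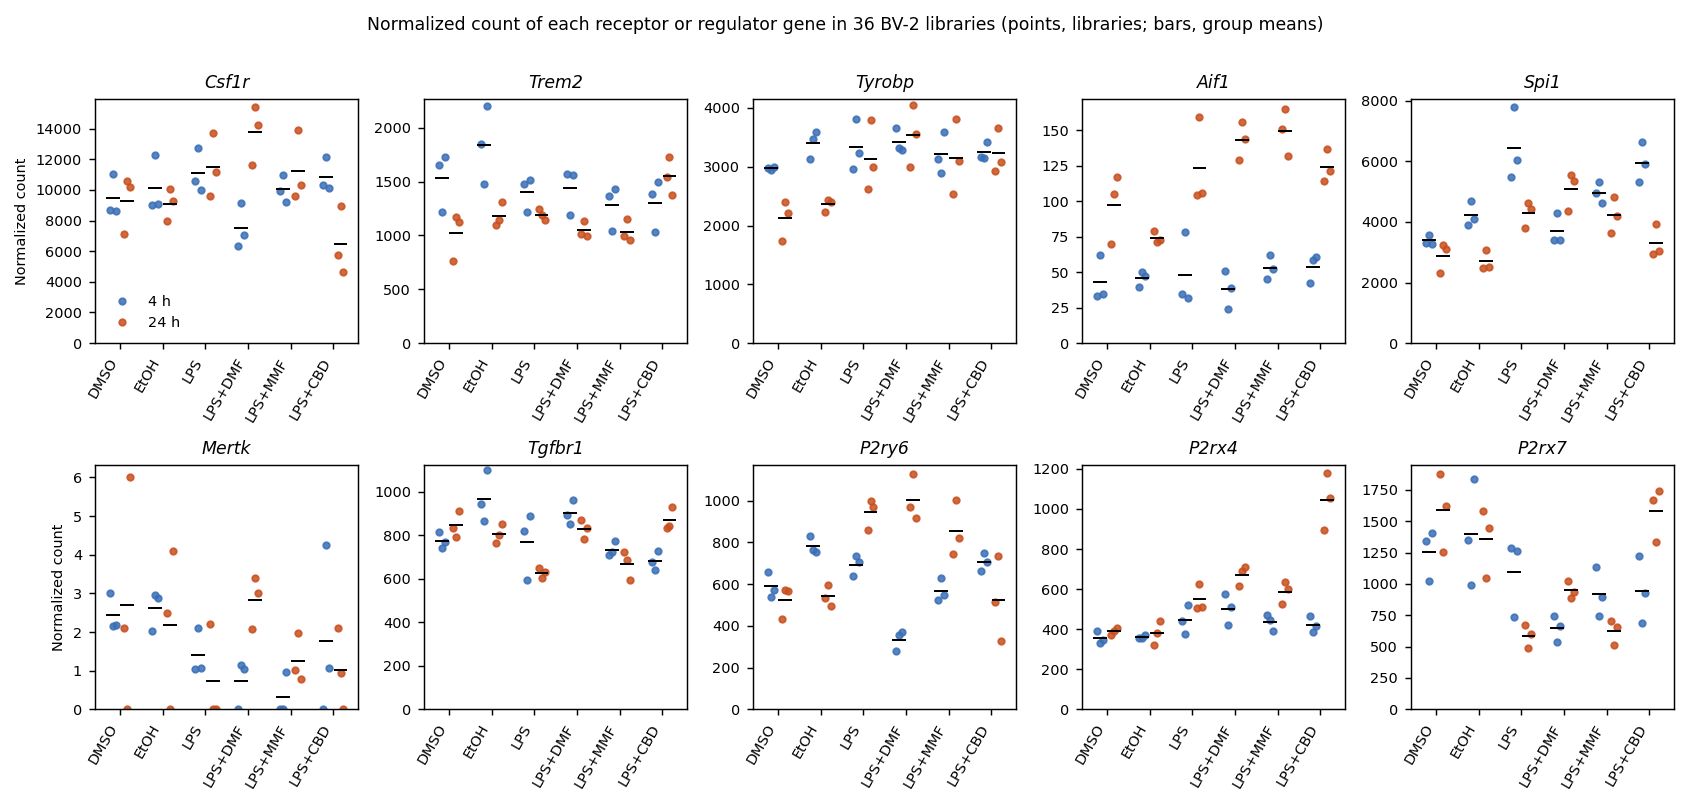
Normalized count of each of the 10 genes (y axes, linear from 0, a different scale per panel) in 6 treatments (x axes) at 4 h (blue) and 24 h (orange). Points are libraries and black bars are means of 3. P2rx4 is highest in LPS+CBD at 24 h (894 to 1177), P2ry6 lowest in LPS+DMF at 4 h (278 to 372), and Mertk stays at or below 6.02 in every library.

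LPS changed few of these genes at 4 h and most of them at 24 h. At 4 h, 1 of the 9 tested members, Spi1, was called higher (limma, adjusted p below 0.05) against DMSO, where 14.1% of all genes were called, and the same gene alone against EtOH, where 10.2% were. At 24 h, 6 members were called against DMSO (22.7% of all genes) and 7 against EtOH (20.5%). Spi1, P2ry6, P2rx4 and Tyrobp were higher and P2rx7 and Tgfbr1 lower in both comparisons, and Aif1 was higher against EtOH. Thus 4 members were higher (12.1% of all genes) and 2 lower (10.6%) against DMSO, and 5 higher (10.8%) and 2 lower (9.72%) against EtOH. The median log2 fold change of the 9 members at 24 h was 0.36 against DMSO and 0.41 against EtOH, with 0.01 over all genes in each. Both comparisons use the same LPS libraries.

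**Figure D2:**
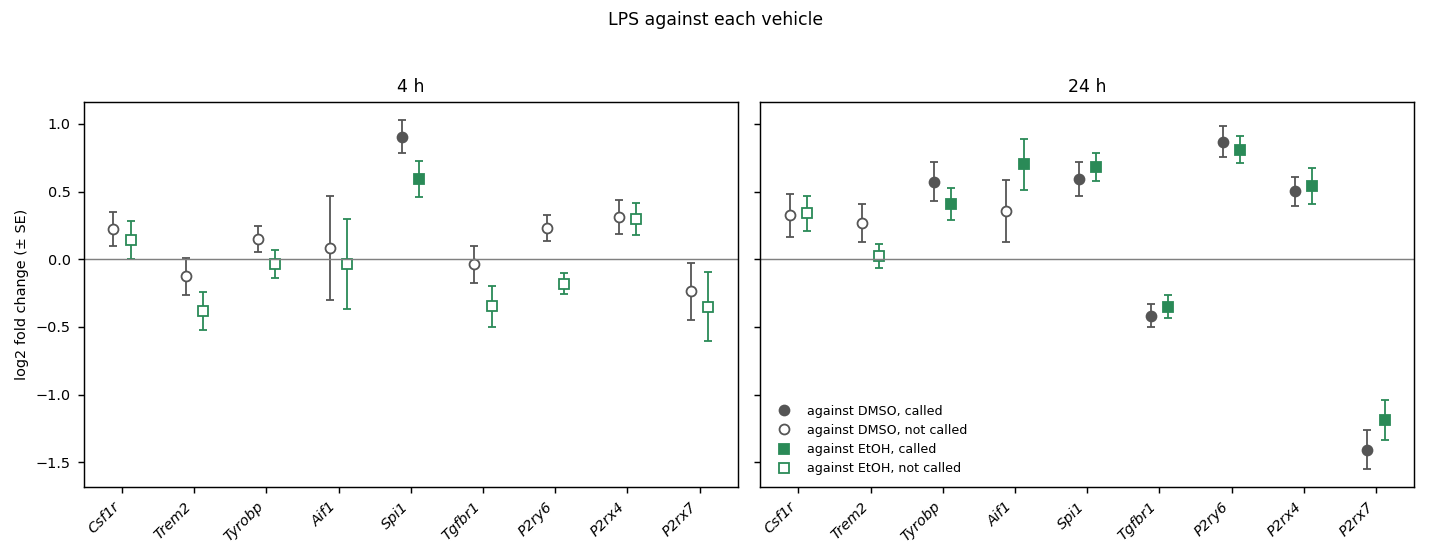
Log2 fold change (y axis, ± SE from limma) of LPS over DMSO (grey circles) and over EtOH (green squares) at 4 h and 24 h for 9 genes (x axes). Filled symbols passed the test; at 24 h P2rx7 lies lowest at -1.41 and -1.19, and P2ry6 highest at 0.87 and 0.81.

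The purinergic receptors moved in opposite directions under LPS at 24 h. P2rx7, the high-threshold ATP channel, was at 671, 491 and 603 normalized counts in the LPS libraries, at 1879, 1256 and 1621 with DMSO and at 1583, 1049 and 1443 with EtOH. Every LPS library lay below every vehicle library. P2rx7 fell by 1.41 on the log2 scale against DMSO (SE 0.15, adjusted p = 5.9e-05) and by 1.19 against EtOH (SE 0.15, adjusted p = 0.000209). P2rx4, the more ATP-sensitive channel, was at 507, 628 and 513 with LPS, 373, 389 and 406 with DMSO and 321, 380 and 443 with EtOH. It rose by 0.50 against DMSO (SE 0.11, adjusted p = 0.00599) and by 0.54 against EtOH (SE 0.13, adjusted p = 0.0142). P2ry6, the UDP receptor, was at 861, 1000 and 972 with LPS and between 434 and 598 in the 6 vehicle libraries. It rose by 0.87 (SE 0.12, adjusted p = 0.000372) against DMSO and by 0.81 (SE 0.10, adjusted p = 0.000176) against EtOH. In neither direction did any LPS library overlap with a vehicle library for these receptors.

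At 4 h none of the 3 purinergic receptors passed the test against either vehicle. P2ry6 was at 640, 733 and 704 with LPS, 657, 539 and 573 with DMSO and 833, 765 and 755 with EtOH, so the LPS mean lay between those of the vehicles (log2 0.23 against DMSO, adjusted p = 0.15, and -0.18 against EtOH, adjusted p = 0.209). The LPS effect on P2ry6 was larger at 24 h than at 4 h by 0.64 with DMSO as the vehicle (SE 0.16, adjusted p = 0.024) and by 0.99 with EtOH (SE 0.13, adjusted p = 0.00074). The corresponding difference for P2rx7 was -1.17 with DMSO (SE 0.29, adjusted p = 0.0211) and -0.84 with EtOH (SE 0.33, adjusted p = 0.134). These 2 interaction tests were added after the data were seen, and 9.36% and 9.05% of all genes were called in them. With DMSO, the P2ry6 difference lost its call in 5 of 12 fits without a library (DMSO 4 h replicates 4 and 6, LPS 4 h replicate 1, LPS 24 h replicates 2 and 3) and the P2rx7 difference in 2 (LPS 4 h replicate 3 and DMSO 24 h replicate 6), with adjusted p of at most 0.0592.

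Spi1 was the only member called higher with LPS at both times. At 4 h it was at 5464, 7789 and 6057 with LPS, 3304, 3573 and 3284 with DMSO and 3886, 4701 and 4099 with EtOH. All LPS libraries were above all vehicle libraries. The rise was 0.91 (SE 0.12, adjusted p = 0.00231) against DMSO and 0.60 (SE 0.13, adjusted p = 0.0257) against EtOH, and the latter was lost without LPS replicate 3, EtOH replicate 4 or EtOH replicate 6 (adjusted p up to 0.112). At 24 h the LPS libraries were at 3787, 4632 and 4439 and the vehicles between 2317 and 3247, a rise of 0.59 (SE 0.12, adjusted p = 0.00559) and 0.68 (SE 0.10, adjusted p = 0.000741). Among 10 transcription factors that act beside PU.1, Cebpb, a C/EBP factor of inflammatory activation, was called higher against DMSO at both times (0.88 with adjusted p = 0.00184 at 4 h, 0.48 with adjusted p = 0.0104 at 24 h). Irf8, an interferon regulatory factor that binds DNA with PU.1, was called higher at 24 h against DMSO (0.52, adjusted p = 0.00106) and not against EtOH (0.19, adjusted p = 0.244). Cebpb was called against EtOH too, at 4 h (0.69, adjusted p = 0.0103) and 24 h (0.59, adjusted p = 0.000265). In all, 1 of the 10 was higher and 1 lower at 4 h against either vehicle. At 24 h 2 were higher and 1 lower against DMSO, and 1 higher and 3 lower against EtOH, next to the 22.7% and 20.5% of all genes called in either direction.

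Csf1r, the CSF1 receptor, did not pass the test for LPS at either time. At 24 h it was at 9587, 13699 and 11141 with LPS and at 7138, 10561 and 10183 with DMSO, overlapping groups with a log2 difference of 0.32 (95% interval -0.02 to 0.67, adjusted p = 0.167). Its ligand Csf1 rose at 4 h, from a mean of 474 with DMSO to 1244 with LPS (log2 1.399, adjusted p = 0.0013). The other ligand, Il34, had group means of 3.62 to 12.3 over all 12 groups. Syk, the kinase that ITAM adaptors recruit, rose at 24 h (0.86, adjusted p = 0.000902). Of 6 tested genes of the CSF1R list, 2 were higher and 0 lower against DMSO at 4 h, and 4 were higher and 0 lower at 24 h. Against EtOH 7 could be tested, of which 2 were higher and 1 lower at 4 h and 4 higher and 0 lower at 24 h. Of all genes, 14.1% were called against DMSO and 10.2% against EtOH at 4 h, and 22.7% and 20.5% at 24 h.

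Tyrobp, the DAP12 adaptor, rose with LPS at 24 h whereas its partner Trem2 did not pass the test. Tyrobp was at 2616, 3798 and 2998 with LPS, 1745, 2407 and 2218 with DMSO and 2233, 2441 and 2402 with EtOH, with no overlap. The rise was 0.57 (SE 0.14, adjusted p = 0.0146) against DMSO. Against EtOH it was 0.41 (SE 0.12, adjusted p = 0.0315), and that call was kept only without LPS replicate 1 (adjusted p 0.00507 to 0.0881 over the 6 fits). Trem2 was at 1242, 1193 and 1145 with LPS, 760, 1167 and 1126 with DMSO and 1099, 1140 and 1314 with EtOH. Its groups overlapped (log2 0.27, adjusted p = 0.202, and 0.02, adjusted p = 0.882). Other genes of the list around TREM2 and DAP12 did pass against DMSO at 24 h. Trem1, an activating receptor that also signals through DAP12, rose by 1.37 (adjusted p = 0.000848) and Trem3 by 1.61 (adjusted p = 0.000254). The inhibitory sialic acid receptor Siglece, of another receptor family, rose by 2.70 (adjusted p = 4.46e-05). Of the 7 genes of this list, 5 were higher and 0 lower against either vehicle. Of all genes, 12.1% were called higher against DMSO and 10.8% against EtOH.

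Tgfbr1, the type I TGF-beta receptor, was lower with LPS at 24 h. The LPS libraries were at 649, 601 and 629, below DMSO at 831, 793 and 909 and EtOH at 763, 802 and 850. The fall was 0.42 on the log2 scale against DMSO (SE 0.08, adjusted p = 0.00449) and 0.35 against EtOH (SE 0.09, adjusted p = 0.0129), where the call ended without LPS replicate 3, EtOH replicate 5 or EtOH replicate 6 (adjusted p up to 0.0582). Its ligand gene Tgfb1 went the other way, from a mean of 5009 with DMSO to 6168 with LPS (0.31, adjusted p = 0.0116). Of 12 tested genes of the TGF-beta list, 2 were higher and 4 lower against DMSO at 24 h; Smad6 and Smad7, inhibitory SMADs, were among the latter (-1.16, adjusted p = 0.00677, and -0.46, adjusted p = 0.0374). Against EtOH 2 of 13 were higher and 4 lower, and Smad7 did not pass (-0.41, adjusted p = 0.0516). Of all genes, 22.7% were called against DMSO and 20.5% against EtOH.

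Aif1, which encodes the microglial marker IBA1, was scarce in these cells. At 24 h it was at 104, 159 and 106 normalized counts with LPS, 69.5, 105 and 117 with DMSO and 79.2, 71.5 and 72.3 with EtOH. It was called higher against EtOH (0.70, SE 0.19, adjusted p = 0.0225), a call lost without LPS replicate 2, EtOH replicate 5 or EtOH replicate 6 (adjusted p up to 0.0697), and not against DMSO (0.36, adjusted p = 0.293).

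Mertk, the apoptotic-cell receptor, was at the limit of detection. Each library held between 0 and 6 Mertk reads, and each group of 3 libraries 1 to 10. Group means were 0.323 to 2.83 normalized counts. Mertk did not pass the filter on low counts in any pair of groups, so no group difference was tested for it. Of its relatives and ligands, Tyro3 reached a mean of at most 4.16, Axl 5.51 to 25.4, Pros1 2.46 to 9.11 and Gas6, the ligand of all 3 receptors, 91.8 to 165. All 3 receptors of the family were thus scarce in these cells.

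With LPS+DMF several members were lower than with LPS alone at 4 h, and others were higher at 24 h. Against LPS alone at 4 h, 3 of the 9 tested members were called, all lower, where 11.1% of all genes were called and 6.51% were called lower. P2ry6 was at 278, 354 and 372 with LPS+DMF and at 640, 733 and 704 with LPS, groups that did not overlap. It fell by 1.06 (SE 0.13, adjusted p = 0.00129), to the lowest P2ry6 mean of all 12 groups. Spi1 was at 3404, 4295 and 3405, below every LPS library, and fell by 0.79 (SE 0.15, adjusted p = 0.00884). Without LPS+DMF replicate 3 its adjusted p was 0.0502. Csf1r was at 6369, 9115 and 7050 against 10554, 12742 and 10017 with LPS and fell by 0.58 (SE 0.15, adjusted p = 0.0361). The Csf1r call was kept only without LPS+DMF replicate 2 (adjusted p 0.00586 to 0.145 over the 6 fits). P2rx7, at 742, 535 and 661 against 1284, 736 and 1260, overlapped by a single pair of libraries on this joint scale, though not in the deposited table. It did not pass by limma (-0.73, adjusted p = 0.0569), but did by edgeR (adjusted p = 0.0446), by DESeq2 (adjusted p = 0.00336) and with the replicate number as a block (adjusted p = 0.00405).

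Some genes around these members moved too at 4 h under DMF, where 11.1% of all genes were called. The ligand Csf1 fell by 0.64 (adjusted p = 0.0151), and 3 of 6 tested genes of the CSF1R list were lower and 0 higher. In the TREM2 and DAP12 list 2 of 7 were lower, in the TGF-beta list 3 of 12 and in the purinergic list 2 of 8. None of these lists had a gene called higher. Of 10 PU.1 partners 3 were lower and 1 higher, and of 7 tested genes of the list around MERTK 0 were called. Among PU.1 partners, Irf8 fell by 0.92 (adjusted p = 0.00168) and Mef2c, a MEF2 factor of homeostatic microglia, by 0.73 (adjusted p = 0.000519), while Cebpa rose by 0.70 (adjusted p = 0.0026). P2ry13, an ADP receptor, fell by 1.77 (adjusted p = 0.0156). Tgfbr2, the receptor that pairs with TGFBR1, fell by 0.60 (adjusted p = 0.0186), while Tgfbr1 itself was at 892, 852 and 960 against 819, 592 and 890 (log2 0.25, adjusted p = 0.346).

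**Figure D3:**
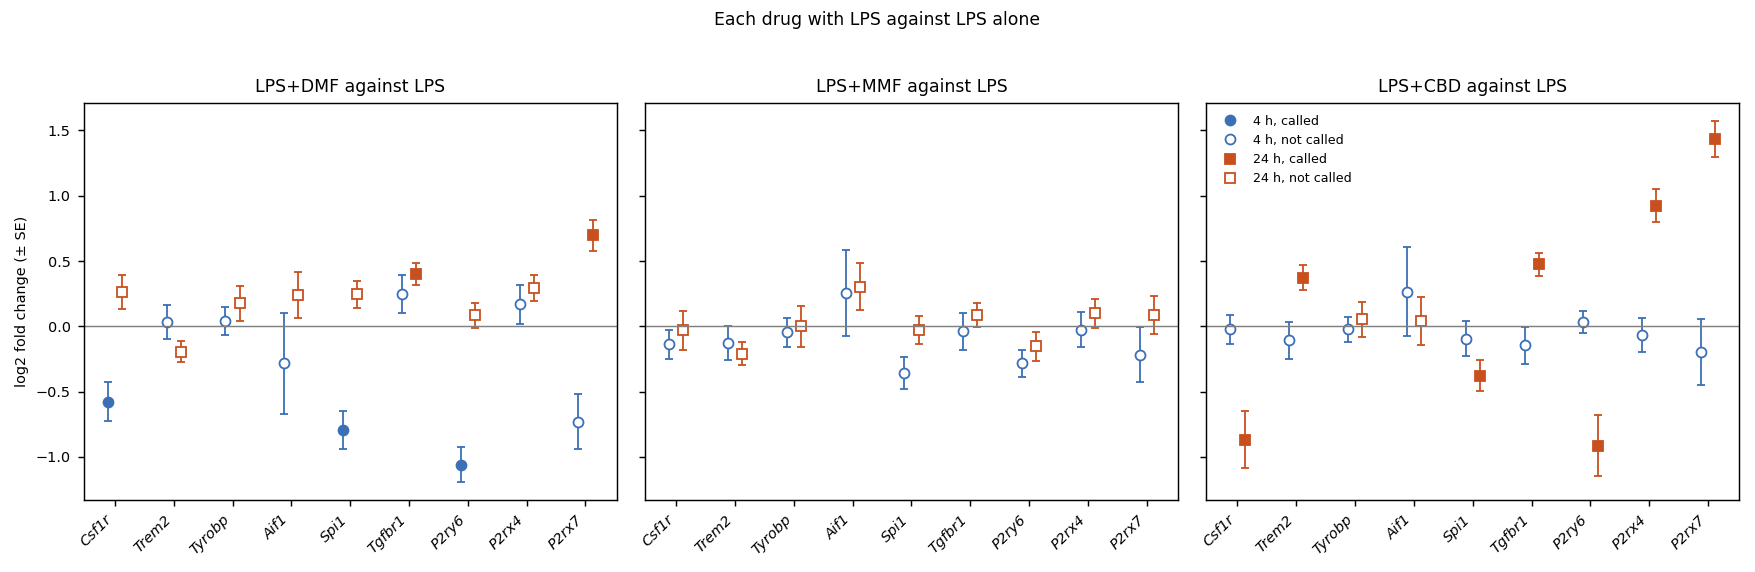
Log2 fold change (y axis, ± SE from limma) of LPS+DMF, LPS+MMF and LPS+CBD over LPS at 4 h (blue circles) and 24 h (orange squares) for 9 genes (x axes); filled symbols passed the test. The 3 calls at 4 h are DMF falls in Csf1r, Spi1 and P2ry6, MMF has no filled symbol, and CBD has 7 at 24 h, from -0.92 for P2ry6 to 1.43 for P2rx7.

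At 24 h, 2 of 9 members were called for DMF, both higher, against 25.1% of all genes called and 11.9% called higher. P2rx7 was at 1025, 885 and 936 with LPS+DMF, above 671, 491 and 603 with LPS, a rise of 0.70 (SE 0.12, adjusted p = 0.00284). Tgfbr1 was at 869, 781 and 834, above 649, 601 and 629, a rise of 0.40 (SE 0.08, adjusted p = 0.00685). Same-numbered libraries deviated together here, and with the replicate number as a block 7 of 9 members were called, as were 39.1% of all genes. The additional ones were Csf1r (0.27, adjusted p = 0.00446), Spi1 (0.24, adjusted p = 0.00417), P2rx4 (0.29, adjusted p = 0.0162) and Tyrobp (0.18, adjusted p = 0.0261), higher, and Trem2 (-0.19, adjusted p = 0.0409), lower. P2rx7 remained below DMSO, whose libraries were at 1879, 1256 and 1621 (-0.70, adjusted p = 0.00137). The Tgfbr1 difference from DMSO did not pass (-0.01, 95% interval -0.18 to 0.16, adjusted p = 0.944).

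In a test of the difference between the DMF effects at 24 h and at 4 h, 4 of the 9 members were called, where 16.4% of all genes were called. The difference was 1.42 for P2rx7 (SE 0.26, adjusted p = 0.00257), 1.14 for P2ry6 (SE 0.17, adjusted p = 0.000485), 1.03 for Spi1 (SE 0.19, adjusted p = 0.00275) and 0.83 for Csf1r (SE 0.22, adjusted p = 0.0182), all towards higher levels at 24 h. The Csf1r call ended without LPS 24 h replicate 1, LPS+DMF 24 h replicate 2 or LPS+DMF 24 h replicate 3 (adjusted p up to 0.0534). At 24 h, P2ry6 under DMF was at 970, 1129 and 916, overlapping LPS at 861, 1000 and 972 (log2 0.09, adjusted p = 0.544). Among purinergic partners, P2ry12, an ADP receptor of homeostatic microglia, rose by 0.72 (adjusted p = 0.0136) and P2ry13 by 1.004 (adjusted p = 0.00323) at 24 h, and Entpd1, the ectonucleotidase CD39, by 0.41 (adjusted p = 0.0194). In that list 5 of 9 tested genes were higher and 0 lower, where 25.1% of all genes were called and 11.9% called higher. Csf1 rose by 0.99 (adjusted p = 0.000138) at 24 h, the reverse of its direction at 4 h.

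MMF changed no member by the test at either time. At 4 h 0 of 9 were called (limma, 0.122% of all genes), with 2 at an unadjusted p below 0.05 (7.37% of all genes), 0 by edgeR, 0 by DESeq2 and 0 with the replicate block. At 24 h 0 of 9 were called (0% of all genes), with 1 at an unadjusted p below 0.05 (3.8% of all genes) and again 0 by edgeR, DESeq2 and the block. The members with the smallest p at 4 h were Spi1, at 4938, 5316 and 4621 against 5464, 7789 and 6057 with LPS (-0.36, 95% interval -0.64 to -0.08, adjusted p = 0.564), and P2ry6, at 524, 630 and 547 against 640, 733 and 704 (-0.28, 95% interval -0.51 to -0.05, adjusted p = 0.579). For both, the MMF libraries lay below the LPS libraries, but neither passed the test. The share of all genes with groups separated in this way is not given, so no change is read from it. At 24 h the 95% intervals of the members ran from at lowest -0.40 to at highest 0.42 in log2, except for Aif1 (-0.10 to 0.71). Set against DMSO at 24 h, LPS+MMF showed 7 called members of 9 (22.4% of all genes), 5 higher (12.5%) and 2 lower (9.86%), the latter being P2rx7 (-1.32, adjusted p = 0.000254) and Tgfbr1 (-0.32, adjusted p = 0.0305). That count fell to 3 without LPS+MMF replicate 3 and to 4 without DMSO replicate 4, and Tgfbr1 lost its call without either of them or DMSO replicate 6 (adjusted p up to 0.12).

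DMF and MMF are related esters of fumaric acid: DMF carries a methyl ester on both acid groups, while MMF keeps a free acid. The pair was compared directly at the same 30 µM dose at both times, with p-values adjusted over all genes tested at each time. At 4 h 2 of 9 members differed, both lower with DMF (8.34% of all genes). P2ry6 was lower by 0.77 (log2 -0.77, 95% interval -1.08 to -0.47, adjusted p = 0.00895), with 278, 354 and 372 for DMF against 524, 630 and 547 for MMF. Spi1 differed by -0.44 (95% interval -0.68 to -0.19, adjusted p = 0.0399), a call kept only without LPS+DMF replicate 2 (adjusted p 0.00386 to 0.161 over the 6 fits). Csf1r (-0.44, interval -0.73 to -0.14, adjusted p = 0.075) and P2rx7 (-0.51, interval -0.87 to -0.15, adjusted p = 0.082) did not pass by limma or edgeR, while DESeq2 called both (adjusted p = 0.0321 and 0.0254), as did the block (adjusted p = 0.00989 and 0.004). Same-numbered libraries did not all deviate together in this pair of groups (lowest r 0.06), so the blocked calls rest on an unshown pairing.

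At 24 h 2 of 9 members differed, both higher with DMF (21.5% of all genes). P2rx7 was at 1025, 885 and 936 with DMF and 706, 512 and 656 with MMF, a difference of 0.61 (95% interval 0.34 to 0.88, adjusted p = 0.00795). Tgfbr1 was at 869, 781 and 834 against 721, 686 and 595, a difference of 0.31 (95% interval 0.11 to 0.51, adjusted p = 0.0328) that was lost without LPS+DMF replicate 1, LPS+DMF replicate 3 or LPS+MMF replicate 3 (adjusted p up to 0.114). With the replicate number as a block, 7 members differed at 24 h (39.8% of all genes), the additional 5 (Csf1r, Spi1, P2ry6, P2rx4 and Tyrobp) all higher with DMF by 0.18 to 0.30 (adjusted p 0.000539 to 0.034). Trem2 did not pass in either fit at 24 h: its difference was 0.02, with a 95% interval of -0.18 to 0.21. Tyrobp at 4 h differed by 0.09 (-0.12 to 0.31), and Trem2 at 4 h by 0.16 (-0.15 to 0.48).

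**Figure D4:**
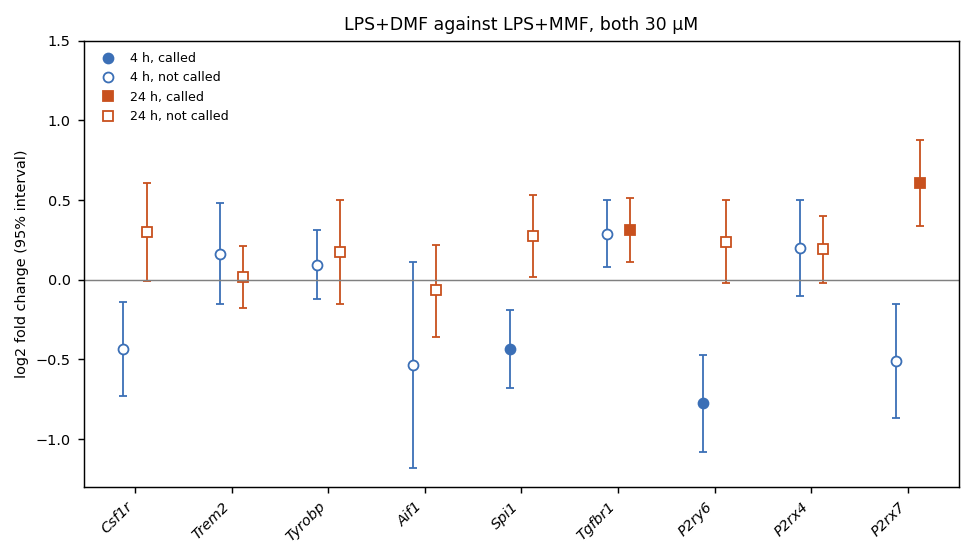
Log2 fold change of LPS+DMF over LPS+MMF (y axis, with 95% intervals from limma) at 4 h (blue circles) and 24 h (orange squares) for 9 genes (x axis), both drugs at 30 µM. Filled symbols passed the test: P2ry6 and Spi1 lie below 0 at 4 h, and P2rx7 and Tgfbr1 above 0 at 24 h.

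CBD changed no member at 4 h and most of them at 24 h. At 4 h 0 of 9 were called against LPS (limma, 0.00875% of all genes), 0 had an unadjusted p below 0.05 (3.18% of all genes), and edgeR, DESeq2 and the replicate block gave 0. At 24 h 7 of 9 were called, 4 higher and 3 lower, where 48.7% of all genes were called, 23.9% higher and 24.8% lower. The median absolute log2 fold change of the 9 was 0.47 and that of all genes 0.32. With the replicate block the count was again 7.

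Both ATP-gated channels rose with CBD at 24 h. P2rx7 was at 1669, 1337 and 1742 with LPS+CBD against 671, 491 and 603 with LPS, a rise of 1.43 (SE 0.14, adjusted p = 4.81e-05). These libraries overlapped with those of EtOH, at 1583, 1049 and 1443 (log2 0.24, 95% interval -0.09 to 0.57, adjusted p = 0.207). P2rx4 was at 894, 1177 and 1056 with LPS+CBD, above every other library of the series, and rose by 0.93 against LPS (SE 0.12, adjusted p = 0.000282) and by 1.46 against EtOH (adjusted p = 2.44e-05). P2rx7 was thus called above LPS, and P2rx4 above both LPS and EtOH. A further ATP-gated channel subunit, P2rx3, rose from a mean of 44.8 with LPS to 334 with LPS+CBD (log2 2.88, adjusted p = 3.26e-06), the highest of its 12 group means. Of 9 tested purinergic partners, 1 was higher and 3 lower, a share near the 48.7% of all genes called.

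P2ry6 and Csf1r fell with CBD at 24 h. P2ry6 was at 514, 734 and 327 against 861, 1000 and 972 with LPS, a fall of 0.92 (SE 0.23, adjusted p = 0.00986), and it overlapped with EtOH at 535, 598 and 495. Csf1r was at 5755, 8970 and 4625 against 9587, 13699 and 11141, a fall of 0.87 (SE 0.22, adjusted p = 0.00868). For both genes all CBD libraries lay below all LPS libraries, and CBD replicate 3 was the lowest of its group and, for Csf1r, of all 36 libraries. Against EtOH at 24 h, Csf1r did not pass (-0.54, adjusted p = 0.0513). The ligand gene Csf1 went the opposite way, from a mean of 794 with LPS to 2701 with LPS+CBD (log2 1.77, adjusted p = 4.1e-06), the highest of the 12 groups. Plcg2, a phospholipase downstream of both CSF1R and TREM2, fell by 0.46 (adjusted p = 0.00421), and Syk rose by 0.52 (adjusted p = 0.0102). In the CSF1R list 2 of 6 tested genes were higher and 3 lower, next to the 48.7% of all genes called.

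Spi1 was lower with CBD at 24 h, at 2938, 3932 and 3044 against 3787, 4632 and 4439. The groups overlapped, and the fall of 0.38 (SE 0.12, adjusted p = 0.0271) lost its call without LPS+CBD replicate 1, LPS+CBD replicate 3, LPS replicate 2 or LPS replicate 3 (adjusted p up to 0.101). Its partner list moved in both directions, with 4 of 10 higher and 3 lower, next to the 48.7% of all genes called. Mef2c fell by 1.92 (adjusted p = 5.09e-06), to a mean of 853, the lowest of its 12 group means, and Cebpa, the C/EBP factor of myeloid differentiation, fell by 0.98 (adjusted p = 0.000132). Klf4 rose by 1.42 (adjusted p = 2.5e-05), Irf4 by 1.34 (adjusted p = 0.00137) and Cebpb by 0.75 (adjusted p = 0.000105).

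Trem2 and Tgfbr1 were higher with CBD at 24 h. Trem2 was at 1540, 1726 and 1375 against 1242, 1193 and 1145, a rise of 0.37 (SE 0.09, adjusted p = 0.00962), and it was also above EtOH (0.39, adjusted p = 0.0117). Tyrobp, at 2930, 3663 and 3084 against 2616, 3798 and 2998, did not pass (0.06, 95% interval -0.24 to 0.35, adjusted p = 0.755). Trem1 fell by 2.35 (adjusted p = 0.000281), from a mean of 927 to 196, while Cd33, a sialic acid receptor, rose by 0.49 (adjusted p = 0.0256). Tgfbr1 was at 832, 843 and 929 against 649, 601 and 629, a rise of 0.47 (SE 0.09, adjusted p = 0.00166), and its difference from EtOH did not pass the test (0.12, 95% interval -0.07 to 0.30, adjusted p = 0.277). Of 12 tested TGF-beta genes 0 were called higher and 7 lower, where 23.9% of all genes were called higher and 24.8% lower. The lower ones included Tgfb1 (-0.84, adjusted p = 0.001), Tgfbr2 (-0.50, adjusted p = 0.00462) and Smad3 (-0.48, adjusted p = 0.0143). The median log2 fold change of those 12 was -0.39, with -0.002 over all genes.

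In the same test of the CBD effects at 24 h and at 4 h, 5 of the 9 members were called, where 31.9% of all genes were called. The difference was 1.64 for P2rx7 (SE 0.32, adjusted p = 0.00159), 0.997 for P2rx4 (SE 0.19, adjusted p = 0.00142) and 0.625 for Tgfbr1 (SE 0.18, adjusted p = 0.0159). It was -0.94 for P2ry6 (SE 0.28, adjusted p = 0.0202) and -0.84 for Csf1r (SE 0.27, adjusted p = 0.0313). The Csf1r call was lost in 7 of 12 fits without a library (LPS 4 h replicates 1 and 3, LPS 24 h replicates 2 and 3, LPS+CBD 4 h replicate 2, LPS+CBD 24 h replicates 1 and 3; adjusted p up to 0.077). With the replicate block 7 members were called (39.8% of all genes), the further ones being Trem2 (0.49, adjusted p = 0.0369) and Spi1 (-0.27, adjusted p = 0.0382). This block ties same-numbered libraries across the 2 times. In LPS+CBD these did not all deviate together (lowest r 0.03, below the limit of 0.1 used here), so the further calls rest on an unshown pairing. For MMF, 0 of 9 members differed between the times by limma (0% of all genes), 0 at an unadjusted p below 0.05 (3.24% of all genes), and 0 by edgeR and DESeq2. P2rx7, P2ry6 and Csf1r were called in the tests of both DMF and CBD. P2rx7 had a higher drug effect at 24 h in both, while for P2ry6 and Csf1r the differences were positive for DMF and negative for CBD. The 2 tests share the LPS libraries, and the drugs' doses and solvents differ, so no test between the drugs was made.

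Each drug was also set against its own solvent. At 4 h, LPS+DMF had 3 of 9 members called against DMSO (23.5% of all genes): P2rx7 (-0.97, adjusted p = 0.00157) and P2ry6 (-0.83, adjusted p = 0.00224) were lower and P2rx4 higher (0.48, adjusted p = 0.0255). The P2rx4 call was lost without LPS+DMF replicate 1 or 3 or DMSO replicate 5 or 6 (adjusted p up to 0.0955). LPS+MMF had 1 called (8.22%), Spi1 (0.55, adjusted p = 0.00193). LPS+CBD had 2 called against EtOH (13.6%), Spi1 higher (0.50, adjusted p = 0.011) and Tgfbr1 lower (-0.49, adjusted p = 0.00952), and Spi1 lost its call without EtOH replicate 6 (adjusted p 0.0545). Spi1 thus stood above the solvent at 4 h with MMF and CBD, while with DMF its difference from DMSO was 0.11 (95% interval -0.12 to 0.35, adjusted p = 0.462).

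At 24 h, LPS+DMF had 7 called against DMSO (40.2% of all genes), with P2rx7 lower and Csf1r, Spi1, Tyrobp, Aif1, P2ry6 and P2rx4 higher, the last by 0.80 (adjusted p = 4.95e-05). Csf1r, which LPS alone did not raise by the test, was at 11645, 15408 and 14218, above every DMSO library (0.60, adjusted p = 0.0078). Aif1 lost its call without LPS+DMF replicate 2 or 3 or DMSO replicate 4 (adjusted p up to 0.0859). LPS+CBD had 4 called against EtOH (50.5%), all higher: P2rx4, Aif1 (0.73, adjusted p = 0.00268), Trem2 and Tyrobp (0.45, adjusted p = 0.00301).

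Exposure time was compared within each treatment. Between 4 h and 24 h, Aif1 rose in all 6 treatments, the only member called in each of them, by 0.68 (EtOH, adjusted p = 0.0076) to 1.94 (LPS+DMF, adjusted p = 0.000116), and every 24 h library lay above every 4 h library of the same treatment. With LPS it went from 34.8, 78 and 31.8 to 104, 159 and 106 normalized counts. Trem2 fell with DMSO (-0.62, adjusted p = 0.00883), EtOH (-0.64, adjusted p = 0.00152) and LPS+DMF (-0.46, adjusted p = 0.00702), and did not pass in the other treatments. Tyrobp fell with both vehicles (-0.52, adjusted p = 0.00141, and -0.55, adjusted p = 9.52e-05) and had log2 differences of -0.10 to 0.03 in the 4 LPS treatments, none called.

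The number of members called for time was 3 of 9 with DMSO (51.6% of all genes), 6 with EtOH (58.6%), 4 with LPS (48.9%), 7 with LPS+DMF (58.8%), 4 with LPS+MMF (49.5%) and 6 with LPS+CBD (63.2%). The share of members was thus below or near that of all genes, except with EtOH and LPS+DMF. P2rx7 fell from 4 h to 24 h with LPS (-0.87, adjusted p = 0.00613) and LPS+MMF (-0.56, adjusted p = 0.0108), and rose with LPS+DMF (0.56, adjusted p = 0.0033) and LPS+CBD (0.76, adjusted p = 0.00535). P2ry6 rose with LPS, LPS+MMF and LPS+DMF, where it reached 1.58 (adjusted p = 8.93e-06), and fell with EtOH (-0.55, adjusted p = 0.000508). With the replicate block, the time effect in LPS+MMF was also called for Spi1 (-0.25, adjusted p = 0.0115) and Trem2 (-0.31, adjusted p = 0.0443). Csf1r rose with LPS+DMF (0.87, adjusted p = 0.000405) and fell with LPS+CBD (-0.81, adjusted p = 0.00509). P2rx4 rose with all 3 drugs, most with LPS+CBD (1.29, adjusted p = 1.04e-05), and the LPS+DMF call (0.42, adjusted p = 0.0146) was lost without the 24 h replicate 3 (adjusted p 0.0634).

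**Figure D5:**
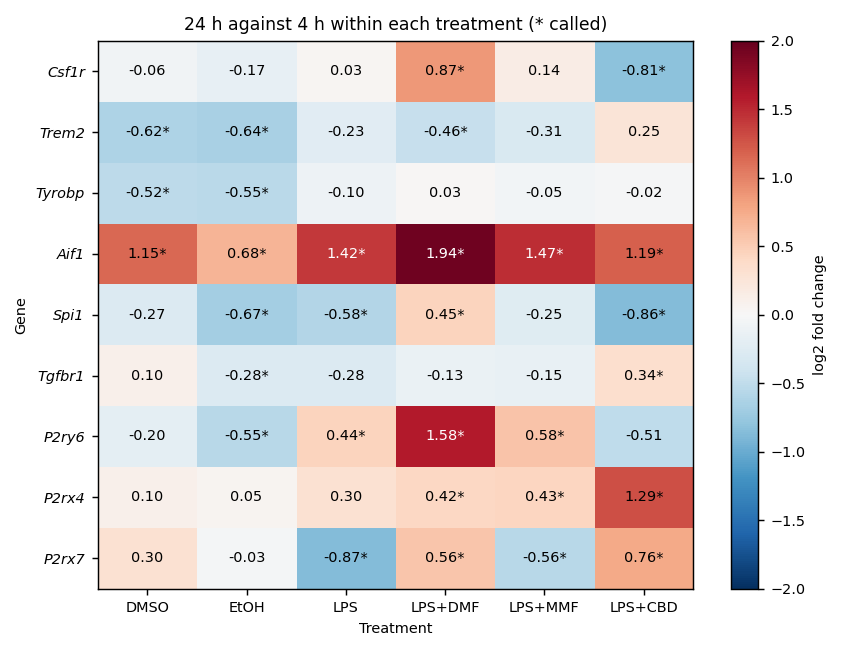
Log2 fold change of 24 h over 4 h (colour and printed value) for 9 genes (rows) in 6 treatments (columns); an asterisk marks adjusted p below 0.05. The Aif1 row is positive throughout, from 0.68 to 1.94, and the P2rx7 row is negative with LPS (-0.87) and LPS+MMF (-0.56) and positive with LPS+DMF (0.56) and LPS+CBD (0.76).

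The 2 solvents were also compared with each other. No member was called at 4 h (limma, 0% of all genes) or 24 h (0.00854%). At 4 h 4 members had an unadjusted p below 0.05 (9.17% of all genes), edgeR called 0 and DESeq2 called 1, P2ry6 (adjusted p = 0.0347). Same-numbered vehicle libraries deviated together at 4 h, and blocking on the number called 5 members (7.65% of all genes), all lower with DMSO: P2ry6 (-0.41, adjusted p = 0.0012), Spi1 (-0.31, adjusted p = 0.000374), Tgfbr1 (-0.31, adjusted p = 0.0101), Trem2 (-0.26, adjusted p = 0.00423) and Tyrobp (-0.18, adjusted p = 0.016). P2ry6 and Spi1 were also lower with LPS+DMF than with LPS at 4 h, and the part of the solvent in those falls was not tested. At 24 h 0 members had an unadjusted p below 0.05 (3.67% of all genes), and edgeR, DESeq2 and the block called 0.

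Genes whose 12 group means followed those of a member most closely, among 10083 other genes with a mean of at least 50, are given as a description over groups that share libraries and depth. Csf1r was closest to Slc39a13 (Pearson r = 0.954) and Smap2 (0.914), and P2ry6 to Slc39a13 (0.943) and Gpr174 (0.942). Spi1 was closest to Tasl (0.962) and Zfp281 (0.953), Tyrobp to Arhgdib (0.920) and Wdr41 (0.919), and Trem2 to Rufy1 (0.925) and Sptssa (0.915). P2rx4 was closest to Fth1 (0.981), the ferritin heavy chain, and Hps4 (0.975), and P2rx7 to Laptm5 (0.936) and Fbxo25 (0.923). Aif1 was closest to Ring1 (0.982) and Rab5b (0.981), and Tgfbr1 to Sfmbt1 (0.869) and Ints6 (0.843). Among the members themselves the closest pair was Csf1r and P2ry6 (r = 0.83 over 12 groups).

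In the deposited annotation (GRCm39), the members lie on the plus strand except Aif1 and P2ry6. Csf1r spans chr18:61233670-61265221, Spi1 chr2:90912735-90946101, Trem2 chr17:48653429-48661175, Tyrobp chr7:30113185-30117010, Aif1 chr17:35389967-35395044 and Mertk chr2:128540876-128644814. Tgfbr1 spans chr4:47353222-47414931, P2ry6 chr7:100586837-100623856, P2rx4 chr5:122845607-122867801 and P2rx7 chr5:122781974-122829495. The counts are per gene over its exons. All members but Tyrobp share part of their position with a gene annotated on the opposite strand in GENCODE, Csf1r with the coding gene Hmgxb3 and the others mostly with long noncoding RNAs. As the strand setting of the counting is not given in the sources used here, reads of such pairs cannot be told apart.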

How the data were processed

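RNA of 36 BV-2 libraries was sequenced. After trimming (Cutadapt 4.4, Trimmomatic 0.39), the authors aligned to GRCm39 (HISAT2 2.2.1), counted per Ensembl gene (HTSeq 2.0.3) and divided by DESeq2 1.40.2 size factors. They deposited 30 tables, 1 per pair of groups, of this normalized count signal. The tables' own fold changes and p-values were not used. In 155 of 180 library columns the values gave back whole reads (100% of 2695078 values within 0.01 read of a whole number), and levels over all 36 libraries use these reads under joint median-of-ratios factors.

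Each pair of groups was tested with limma 3.58.1 (lmFit, eBayes with trend, two-sided, R 4.3.3) on log2(deposited normalized count + 1), over genes at 10 or more in at least 3 of 6 libraries. Fold changes are on that scale, first group over second, and come from each table's own normalization, not from the joint levels. Adjusted p is Benjamini-Hochberg over all genes, called below 0.05. Differences between times were interaction terms on 12 libraries. edgeR 4.0.16 and DESeq2 1.42.0 on the recovered reads, a pseudocount of 5, no filter, a fold limit, a replicate block and leaving out each library were alternatives. The code was tested on simulated data.

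The LPS groups carry numbers 1 to 3 and the vehicles 4 to 6. Numbers were taken to pair libraries where the deviations of all 3 same-numbered pairs correlated above 0.1, which held for 10 of 16 pairs of groups, among them LPS+DMF and LPS+CBD against LPS at both times (lowest r 0.13). No 2 libraries of a group agreed within sampling noise (chi-square per degree of freedom 4.83 to 31). The members and gene lists were chosen with earlier results of these data known. All 10 members were named, with list genes that were called or are a ligand or partner, and for each tested member the 2 most similar genes. Some genes of these lists are not reported here.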

Additional observations from a re-analysis of the deposited data

Results flagged for a closer look

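The effect of a treatment differed between 24 h and 4 h, by limma's test of the difference itself, for the following members. For DMF these were Csf1r (0.834), Spi1 (1.029), P2ry6 (1.136) and P2rx7 (1.418), as the log2 effect against LPS at 24 h minus that at 4 h. For CBD they were Csf1r (-0.838), Tgfbr1 (0.625), P2ry6 (-0.943), P2rx4 (0.997) and P2rx7 (1.638). For LPS they were P2ry6 (0.638) and P2rx7 (-1.171) with DMSO as the vehicle and P2ry6 (0.991) with EtOH, in tests added after the data were seen. Adjusted p-values were 0.000485 to 0.0313, with errors and left-out libraries as given with each result above. No outlying library was sought, since each group has 3.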

How the results depend on the processing

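No call of a member reversed under any alternative. Over all pairs of groups and tests between times, 1832 values kept and 74 lost their side of the threshold on leaving out a library, and 38 crossed it upwards; under the other alternatives 1484 kept it, 22 lost it and 42 crossed it upwards. The number of members called moved by more than 1.5 times in the following cases, and the cause was not tested. DESeq2 on the recovered reads called 2 for LPS+MMF against DMSO at 4 h, 4 for DMF against MMF at 4 h, 1 for DMSO against EtOH at 4 h and 5 for time with DMSO. The replicate block called 5 for DMF against MMF at 4 h, 5 for DMSO against EtOH at 4 h, 7 for DMF against LPS at 24 h, 7 for DMF against MMF at 24 h and 5 for time with DMSO. In DMF against MMF at 4 h and in time with DMSO the libraries share only a number (lowest pair correlation 0.06 and 0). In the other pairs whose numbers pair the libraries, the block changed no call beyond those given with the results. LPS groups and vehicles share no number, so no block could be fitted between them, and LPS cannot be told apart from the set of numbers. With called genes limited to log2 fold changes above 0.5 (smaller effects removed by construction), the count was 1 for CBD against EtOH at 4 h, for DMF against MMF at 4 h and 24 h and for DMF against LPS at 24 h, 4 for CBD against LPS at 24 h and for time with LPS+DMF, and 2 for CBD against EtOH at 24 h.

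Leaving out each library in turn gave 1 to 2 members for LPS against DMSO at 4 h (2 without LPS replicate 2) and 0 to 2 for LPS against EtOH at 4 h (0 without LPS replicate 3 or EtOH replicate 4 or 6, 2 without LPS replicate 2 or EtOH replicate 5). It gave 1 to 3 for DMF against LPS at 4 h (1 without LPS+DMF replicate 3), 1 to 2 for MMF against DMSO at 4 h (2 without LPS+MMF replicate 1 or DMSO replicate 5) and 1 to 4 for CBD against EtOH at 4 h (1 without EtOH replicate 6, 4 without EtOH replicate 5). DMF against MMF at 4 h gave 1 to 3, with 1 in all fits but the one without LPS+DMF replicate 2. At 24 h it gave 4 to 8 for LPS against EtOH (4 without EtOH replicate 5 or 6), 2 to 4 for DMF against LPS (4 without LPS+DMF replicate 1 or LPS replicate 2), 3 to 6 for MMF against DMSO (3 without LPS+MMF replicate 3, 4 without DMSO replicate 4) and 1 to 5 for DMF against MMF (1 without LPS+DMF or LPS+MMF replicate 3, 5 without LPS+MMF replicate 2). Time with DMSO gave 3 to 5 (5 without DMSO 24 h replicate 5). The LPS effect by time gave 1 to 3 with either vehicle. With EtOH it was 3 without LPS 4 h replicate 2 and 2 without LPS 24 h replicate 1 or EtOH 4 h replicate 5. With DMSO it was 1 without each of the libraries named with those results. A pseudocount of 5 and no filter on low values moved no count by more than 1.5 times. Depth limits Mertk, which could not be tested at the filter used, and no result without the filter is given for it.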

Other observations

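Other homeostatic genes of microglia were also measured. Cx3cr1, the fractalkine receptor of microglia, was highest with LPS at 24 h, at a mean of 288 normalized counts, and lowest with LPS+CBD at 24 h, at 17.8 (log2 -4.09 against LPS, adjusted p = 6.66e-05). DMF also lowered Cx3cr1 at 4 h (-1.93, adjusted p = 0.000646). Tmem119, a marker of resident microglia, fell with CBD at 24 h (-0.86, adjusted p = 0.0143) and rose with DMF (0.57, adjusted p = 0.0241), between group means of 25.4 and 184. In a list of 11 homeostatic genes, which differs in part from the 9 markers above, 5 could be tested under CBD at 24 h: 0 were called higher and 4 lower, where 23.9% of all genes were called higher and 24.8% lower.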
